A study of Mus musculus with 6 samples.

Results

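Cullins are the scaffold proteins of the largest class of ubiquitin ligases, and the set described here joins 7 of them to the small subunits they share. Its 10 genes are Cul1, Cul2, Cul3, Cul4a, Cul4b, Cul5, Cul7, the RING-finger genes Rbx1 and Rnf7, and Skp1a (now named Skp1). They were chosen by gene name, from the non-control probes that the scanner files give to those names. The choice of this set was made with earlier results of these data known. All 10 were measured, among 32043 named genes on the array, of which 17885 were bright enough to test. Samples from C57BL6 mice of 2 groups, 3 in each, were compared by 1-colour Agilent arrays, with 1 array per sample. In the mice called KO, Rpt3 (the gene Psmc4, an ATPase of the proteasome's regulatory particle) was knocked out specifically in satellite cells. The control mice are called Con. Satellite cells are the resident stem cells of skeletal muscle, and were sorted from both groups. The allele, the Cre driver, the sort markers, the age and the sex of the mice are not given in the sources used here, nor what the controls carry.

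A cullin-RING ligase is built around the cullin. One end of the cullin holds a RING protein, Rbx1 or Rnf7, which recruits the ubiquitin-loaded enzyme, and the other end holds an adaptor and a receptor that picks the substrate. Attachment of the ubiquitin-like protein NEDD8 to the cullin switches the ligase on, and the exchange factor Cand1 lets one receptor replace another. Substrates tagged by these ligases, among them cell cycle inhibitors, transcription factors and signalling proteins, are handed to the proteasome, the machine of which Rpt3 is a part.

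Coding probes of the RING genes are printed because Rbx1 had the smallest p of the set and Rnf7 is its counterpart; they run 5′ to 3′, as the array file gives them on the sense strand. Each has 60 bases, and capitals mark the codons for cysteine and histidine, the residues that hold the zinc ions of a RING finger, in the reading frame of the known protein. Coordinates are those of the mouse build mm9 in the file.
Rbx1 probe A_55_P2038121, chr15:81304298-81304357, plus strand: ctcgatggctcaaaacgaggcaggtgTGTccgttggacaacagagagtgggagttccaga
Rnf7 probe A_55_P2110837, chr9:96372186-96372245, minus strand: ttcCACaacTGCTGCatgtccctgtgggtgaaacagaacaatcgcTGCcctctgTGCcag
Rnf7 probe A_55_P1973521, chr9:96378845-96378904, minus strand: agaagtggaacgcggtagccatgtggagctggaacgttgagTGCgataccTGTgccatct
The Rbx1 window holds 1 cysteine codon and no histidine codon. The first Rnf7 window holds 4 cysteine codons and 1 histidine codon, and the other holds 2 cysteine codons, so these probes read 3 separate stretches of the RING genes.

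Values are log2 of the background-corrected spot signal minus the array's own 75th percentile, so 0 is the brightness of the upper quartile of each array. Levels of different probes are not compared, because probes differ in brightness for the same amount of RNA. On the 6 arrays 44.2% to 57.9% of probes were well above background, with KO3 lowest and KO1 highest. KO3 stood apart from the other 5 arrays on the first principal component (29.3% of the variance), at 70.1 against -23.9 to -4.32. The second component held 26.4%. It put KO1 and KO2 at 35.6 and 32.3, Con1 and KO3 at 9.31 and 1.79, and Con2 and Con3 at -37.3 and -41.7. The array positions put KO1 and KO2 in row 1 of the slide and KO3, Con1, Con2 and Con3 in row 2. Any comparison held within 1 row therefore sets KO3 alone against the 3 controls, and that value is given below beside Psmc4 and each of the 10 genes.

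The targeted gene checks the labels. Psmc4 read 2.004, 2.02 and 1.52 in KO1, KO2 and KO3, against 2.89, 2.58 and 2.84 in Con1, Con2 and Con3. All 3 KO arrays were below all 3 Con arrays. The difference came to -0.92 ± 0.24 (log2, SE), with an adjusted p of 0.410 in the limma fit over all genes and an exact two-sided permutation p of 0.1, the smallest that 3 against 3 can give. Within slide row 2 the difference was -1.25. Where the deleted part of the gene lies relative to this probe is not given in the sources used here. Of the satellite cell markers, Myod1 was well above background on all 6 arrays, Pax7 on 5 and Myf5 on the 3 Con arrays. The mean centred level of the 12 satellite cell genes was -0.06, -0.07 and -0.44 in KO1, KO2 and KO3, and -0.17, 0.45 and 0.29 in Con1, Con2 and Con3, and 5 of the 12 had a higher mean in KO. The early myogenic factor Myf5, which entered the test only through the Con arrays, differed by -1.89 (limma, adjusted p = 0.169). The calcitonin receptor Calcr differed by -1.04 and the chemokine receptor Cxcr4 by -0.65, whereas Pax7 differed by 0.17 and Myod1 by 0.0044. None of the 12 passed the test.

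Markers of other cells were also measured. The mean centred level of the 4 measured of 11 red blood cell genes was 1.16, 0.87 and 0.35 in KO1, KO2 and KO3. In Con1, Con2 and Con3 it was 0.11, -0.92 and -1.57. Of these 4 genes, 3 had a higher mean in KO and 3 were well above background on all 6 arrays. Alas2 and Klf1 were among those not tested. For the 5 measured of 11 neutrophil genes the level was 1.05, 1.15 and -0.83 in the KO arrays, and -0.37, -0.30 and -0.70 in the Con arrays. All 5 had a higher mean in KO. Only 2 of them were well above background on all 6 arrays, so the others entered the test through 1 group. S100a9, Ngp and Ltf were among those not tested. A gene that was not tested can still be well above background on some arrays. The 8 measured of 11 macrophage genes averaged 0.69, 0.34 and -0.46 in the KO arrays, and 0.26, -0.39 and -0.44 in the Con arrays, with 6 higher in KO. All 10 endothelial genes had a higher mean in KO, at 0.32, 0.78 and -0.66 against 0.997, -0.47 and -0.97 in the Con arrays. Muscle fibre genes (6 of 10 measured, 3 higher) averaged 0.27, 0.75 and -0.83 in the KO arrays, and 0.18, -0.32 and -0.05 in the Con arrays. Both measured of 7 lymphocyte genes and 3 of the 10 fibro-adipogenic progenitor genes were higher in KO. In sorted bulk cells, fewer cells of a type and less RNA per cell cannot be told apart.

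None of the 10 genes passed the test between KO and Con. In the limma fit no gene of the array did: 0 of 17885 genes, or 0%, had an adjusted p below 0.05, so the members' count of 0 equals the background. At an unadjusted p below 0.05 there were 0 members, where 7.24% of all tested genes fell there. The mean was higher in KO for 8 members and lower for 2, where 54.8% of all tested genes were higher. No member had all 3 KO arrays above all 3 Con arrays, which 4.86% of all genes had, and none had all KO arrays below, which 5.95% had. The median difference of the members was 0.23, and that of all tested genes was 0.04. In the limma fit, 8 of the 10 genes had a 95% interval lying wholly between -1 and 1, that is, within a doubling or a halving, as 61.5% of all tested genes had. The exceptions were Cul4a, whose interval ended at 1.02, and Rbx1, whose interval ended at 1.20.

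**Figure D1:**
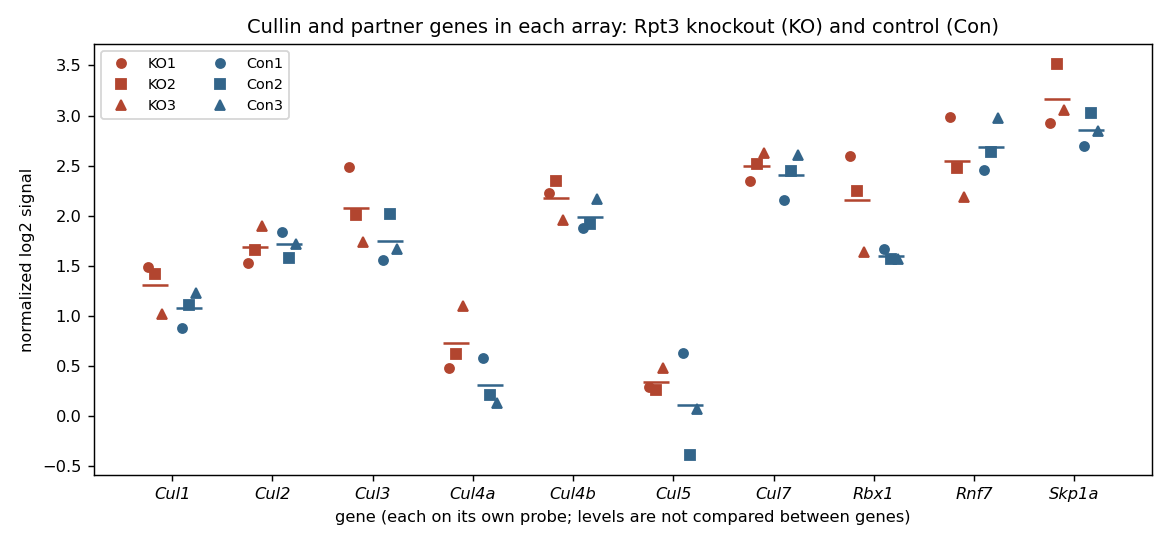
Normalized log2 signal (y axis) of each of the 10 genes (x axis) on its brightest probe. Points are single arrays, KO in red on the left and Con in blue on the right, and bars are group means; the groups overlap for all 10 genes, and for Rbx1 KO1 at 2.59 and KO2 at 2.25 lie above the 3 Con arrays.

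**Figure D2:**
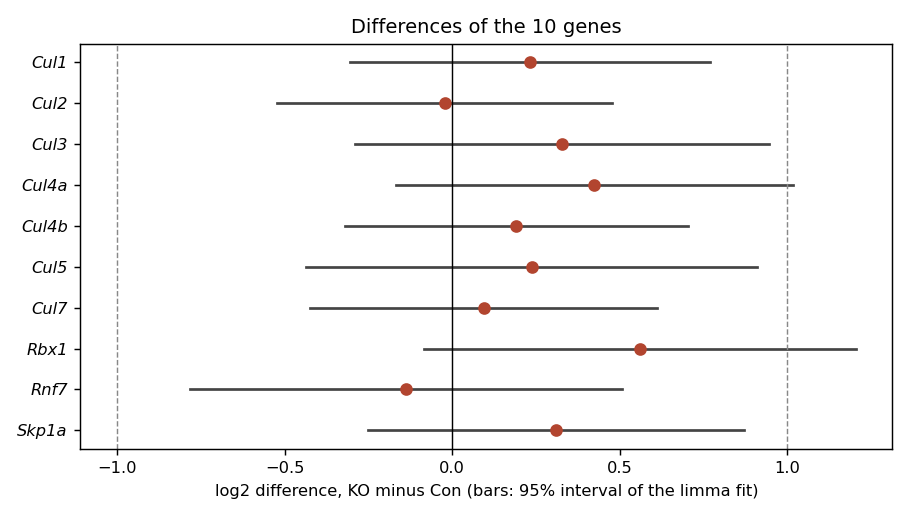
Log2 difference, KO minus Con (x axis), of each gene (y axis), with the 95% interval of the limma fit as a bar. All 10 intervals include 0, and only those of Cul4a and Rbx1 reach past 1.

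Rbx1, the RING subunit that works with Cul1, Cul2, Cul3, the Cul4 pair and Cul7, had the smallest p of the set. On its brightest probe (chr15:81305549-81305608, mm9, plus strand) it read 2.59, 2.25 and 1.64 in KO1, KO2 and KO3, and 1.67, 1.57 and 1.57 in Con1, Con2 and Con3. The 3 Con arrays lay close together, KO1 and KO2 were above them, and KO3 fell inside the Con range. The mean was 2.16 ± 0.48 in KO and 1.60 ± 0.06 in Con (SD, n = 3 each), a 1.47-fold ratio. The log2 difference of 0.56 had a 95% interval of -0.08 to 1.20, an adjusted p of 0.793 in limma, and an exact permutation p of 0.2. Within slide row 2 the difference was 0.04. All marker lists except the lymphocyte genes, the satellite cell genes included, were likewise higher on KO1 and KO2 than on KO3. KO3 also had the lowest share of probes well above background. The endothelial list was highest on Con1, at 0.997, where Rbx1 read 1.67. The part of cell content in the Rbx1 values was not tested. Without KO3 the Rbx1 difference was 0.82, at an adjusted p of 0.398 in limma.

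Rbx1 has 2 further probes, and they did not all read alike. The printed coding probe A_55_P2038121 read 2.34, 2.12 and 1.54 in the KO arrays, against 1.51, 1.41 and 1.20 in the Con arrays. Here all 3 KO arrays were above all 3 Con arrays, by a narrow margin at KO3. Its difference was 0.63, with an adjusted p of 0.667 when every probe was tested on its own in limma. Over the 6 arrays it followed the brightest probe closely, at r = 0.98. The most downstream probe, A_52_P676076 (chr15:81306684-81306743, mm9), read -0.03, 0.32 and -0.63 in the KO arrays, against 0.19, 0.10 and -0.18 in the Con arrays. There the groups overlapped, the difference was -0.15, and the correlation with the brightest probe was 0.31.

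Rnf7, the RING subunit that pairs with Cul5, did not differ detectably. On the printed probe A_55_P2110837 it read 2.99, 2.47 and 2.19 in KO1, KO2 and KO3, and 2.45, 2.64 and 2.98 in Con1, Con2 and Con3. The ranges overlapped, with KO3 below every Con array and KO1 level with Con3, and the difference of -0.14 had a 95% interval of -0.78 to 0.51 (limma, adjusted p = 0.984). Within slide row 2 the difference was -0.50. Its 4 probes gave differences from -0.14 to 0.23, with 2 of them higher and 2 lower in KO. The RING pair was thus measured by 7 probes, none of which passed the test.

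Cul1 and Skp1a belong to the SCF ligases, in which Skp1 bridges Cul1 to the F-box protein that selects the substrate. Cul1 (chr6:47470794-47470853, mm9, plus strand) read 1.49, 1.42 and 1.02 in KO1, KO2 and KO3, and 0.88, 1.11 and 1.23 in Con1, Con2 and Con3. KO1 and KO2 were above every Con array, and KO3 lay within the Con range. The log2 difference was 0.23 with an interval of -0.31 to 0.77 (limma, adjusted p = 0.974), and -0.06 within slide row 2. Skp1a (chr11:52059688-52059747, mm9, plus strand) read 2.92, 3.52 and 3.06 in KO1, KO2 and KO3, against 2.70, 3.03 and 2.84 in Con1, Con2 and Con3. Only Con2 reached into the KO range. The difference was 0.31 with an interval of -0.25 to 0.87 (limma, adjusted p = 0.946), and 0.20 within slide row 2. A second Skp1a probe, A_55_P2185686, was not well above background on any array and gives no value.

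Cul3 takes its substrate receptors directly from proteins with a BTB fold, with no separate adaptor. Its probe (chr1:80268109-80268168, mm9, minus strand) read 2.48, 2.01 and 1.73 in KO1, KO2 and KO3, and 1.56, 2.01 and 1.67 in Con1, Con2 and Con3. KO1 was the highest of the 6, and the other 2 KO arrays lay within the Con range. The difference was 0.33 with an interval of -0.29 to 0.95 (limma, adjusted p = 0.9497), and -0.01 within slide row 2.

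Cul4a and Cul4b are close paralogs that use DDB1 to hold receptors for DNA repair and replication control. Cul4a, on a probe that the file assigns to a single Ensembl transcript (chr8:13124101-13124160, mm9, plus strand), read 0.48, 0.62 and 1.102 in KO1, KO2 and KO3, and 0.58, 0.22 and 0.13 in Con1, Con2 and Con3. KO3 was the highest array and Con1 lay among the KO values. The difference was 0.42 with an interval of -0.17 to 1.02 (limma, adjusted p = 0.864), and 0.79 within slide row 2. The other Cul4a probe, A_51_P435251 (chr8:13147326-13147385), assigned to the RefSeq transcript, read 0.45, 0.71 and -0.58 in the KO arrays, against 0.41, 0.54 and 0.55 in the Con arrays. KO3 was its lowest array, so the probes of Cul4a ran opposite ways on KO3. The second probe's difference was -0.31, and its correlation with the first over the 6 arrays was -0.79.

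Cul4b (chrX:35885050-35885109, mm9, minus strand) read 2.23, 2.35 and 1.96 in KO1, KO2 and KO3, and 1.88, 1.92 and 2.17 in Con1, Con2 and Con3. KO1 and KO2 were above the 3 Con arrays and KO3 was inside their range. The difference was 0.19 with an interval of -0.32 to 0.70 (limma, adjusted p = 0.984), and -0.03 within slide row 2. A dimmer Cul4b probe, A_55_P1981780, which was well above background on all KO arrays and 2 Con arrays, read -2.26, -1.26 and -1.57 in the KO arrays, against -2.59, -2.23 and -3.12 in the Con arrays. KO1 lay just under Con2, so these groups overlapped as well. The difference of this probe, 0.95, was the highest of any member probe and had an adjusted p of 0.583 in limma with every probe tested. It entered the test only through the KO arrays.

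Cul2 and Cul5 both hold their receptors through elongins B and C, Cul2 with the VHL type and Cul5 with the SOCS-box type. Cul2 read 1.53, 1.65 and 1.89 in KO1, KO2 and KO3, and 1.84, 1.58 and 1.72 in Con1, Con2 and Con3. The groups covered almost the same range, and the difference of -0.02 had an interval of -0.52 to 0.48 (limma, adjusted p = 0.993). Within slide row 2 it was 0.18. A dimmer Cul2 probe, A_55_P2121081, read -0.54, -0.77 and -0.89 in the KO arrays, against -0.33, 0.09 and 0.16 in the Con arrays. On this probe all KO arrays were below all Con arrays, and the difference was -0.71, the lowest of any member probe, with an adjusted p of 0.537 in limma with every probe tested. The pair of measured Cul2 probes correlated at -0.29 over the 6 arrays, and the remaining pair of Cul2 probes did not pass the background filter.

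Cul5 (chr9:53425327-53425386, mm9, minus strand) read 0.29, 0.26 and 0.49 in KO1, KO2 and KO3, and 0.64, -0.39 and 0.08 in Con1, Con2 and Con3. The Con arrays spread widest here, with an SD of 0.51, and enclosed all 3 KO values. The difference was 0.24 with an interval of -0.44 to 0.91 (limma, adjusted p = 0.984), and 0.38 within slide row 2. Cul7, a scaffold that works with the F-box protein Fbxw8 and is altered in a human growth disorder, was measured at chr17:46801251-46801309 (mm9, plus strand). It read 2.35, 2.52 and 2.63 in KO1, KO2 and KO3, and 2.16, 2.45 and 2.61 in Con1, Con2 and Con3. The 2 groups ran side by side, with a difference of 0.09 and an interval of -0.42 to 0.61 (limma, adjusted p = 0.984). Within slide row 2 it was 0.22.

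Across all probes of the set, 18 of 21 passed the background filter, and 12 of those had a higher and 6 a lower mean in KO. Tested one by one in limma, 0 of 24763 probes of the array, or 0%, had an adjusted p below 0.05, and 7.47% had an unadjusted p below 0.05. Of the member probes, Cul2 A_55_P2121081, Cul4b A_55_P1981780 and Rbx1 A_55_P2038121 were in that unadjusted range. Each of these 3 genes has at least 1 other probe outside it. Cul4a, Rbx1 and Rnf7 each had probes of both signs.

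**Figure D3:**
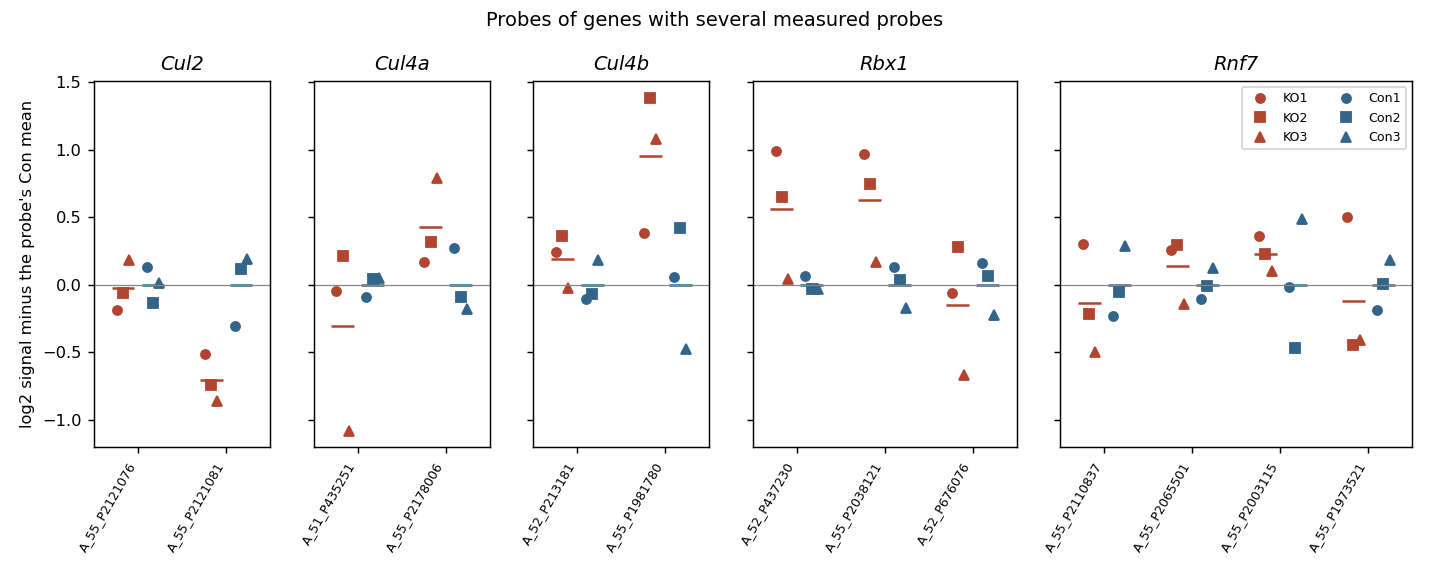
Log2 signal minus the probe's own Con mean (y axis) for each probe (x axis) of the 5 genes with several measured probes. Points are single arrays, KO in red on the left and Con in blue on the right, and bars are group means; Cul4a KO3 is high on one probe and low on the other, and the Rbx1 probes with differences of 0.56 and 0.63 run together while that at -0.15 does not.

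Correlations between members' profiles over the 6 arrays ran from r = -0.85 (Cul2 with Cul3) to 0.91 (Cul1 with Cul4b). Cul1 correlated with Rbx1 at 0.82, and Cul4b with Cul5 at -0.02. These values describe 6 points that share slide, scaling and group. Pairs without a member were not correlated for comparison. The genes whose profile was most like that of Rbx1 were Gstm4, a glutathione transferase, at r = 0.999, the zinc-finger gene Zscan12 at 0.997 and Snrnp48, a protein of the minor spliceosome, at 0.996. In all, 68 of 17884 genes reached an r of at least 0.95 with Rbx1.

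The other genes of the ligase cycle were read from lists drawn up by function. Of the listed genes 88 were bright enough to test, with 42 higher and 46 lower in KO and a median difference of -0.03. None passed an adjusted p of 0.05 in limma, and 7 had an unadjusted p below 0.05, where 7.24% of all tested genes did. All KO arrays were above all Con arrays for 3 of them and below for 7, against 4.86% and 5.95% of all tested genes. These shares are near the background.

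Nearest to the members are the adaptors, the NEDD8 cycle and the exchange factors. All 3 adaptors were measured: Ddb1, which joins Cul4 to its receptors, differed by -0.04, elongin C (Tceb1) by 0.23 and elongin B (Tceb2) by 0.01. In the NEDD8 cycle 8 of 11 genes were measured, 4 higher and 4 lower. Dcun1d2, which promotes the transfer of NEDD8 to cullins, read -1.80, -1.37 and -2.40 in KO1, KO2 and KO3, and -1.32, -1.11 and -0.48 in Con1, Con2 and Con3. All its KO arrays were below the Con arrays, 1 of them not well above background, and it entered the test only through the Con arrays. The difference was -0.88 (limma, adjusted p = 0.619). Ube2m, the NEDD8-conjugating enzyme that works with Rbx1, differed by 0.22. Cand1, the only 1 of 3 exchange factors and inhibitors measured, differed by -0.49 (limma, adjusted p = 0.896). Its value was highest on Con2, at 2.69, while the other 5 arrays lay between 1.39 and 1.79.

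All 5 genes for enzymes that transfer ubiquitin at the RING end were measured, 4 higher and 1 lower. Cdc34, the classical ubiquitin-conjugating enzyme of the SCF ligases, read 1.23, 0.91 and 1.16 in KO1, KO2 and KO3, and 0.18, 0.84 and 0.64 in Con1, Con2 and Con3. Its KO arrays were above all Con arrays, with a difference of 0.55 (limma, adjusted p = 0.731). Arih2, a ligase that works with neddylated Cul5, differed by 0.22, and Ube2g1 by -0.03. Of the 3 partners of Cul7, Fbxw8 and Obsl1 were measured, both lower in KO. Fbxw8 differed by -0.26, with all KO arrays below the Con arrays (limma, adjusted p = 0.947). Obsl1 differed by -0.78 with an interval of -2.99 to 1.43, its Con arrays being spread from -3.34 to 0.91. It was well above background on only 2 of the Con arrays and entered the test only through the KO arrays. Cul9, a further member of the cullin family, differed by -0.17.

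Differences of the substrate receptors ranged from -1.63 to 1.51, and none passed the test. Among the Cul3 receptors 21 of 25 were measured, 9 higher and 12 lower. Kctd13, a Cul3 adaptor for the small GTPase RhoA, differed by 1.51, with all KO arrays above the Con arrays (limma, adjusted p = 0.539). It was well above background on only 1 Con array and entered the test only through the KO arrays. The receptor genes Rhobtb2 and Klhl7 differed by -0.86 and 0.40. Rhobtb2 had all KO arrays below all Con arrays, but it was well above background on only 2 of them and entered the test through the Con arrays. The groups of Klhl7 overlapped.

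Among the receptors of the Cul4 ligases 18 of 21 were measured, 9 higher and 9 lower. Dtl, which targets the replication licensing factor Cdt1 during S phase, read -2.39, -2.14 and -3.92 in KO1, KO2 and KO3, against -0.67, -1.74 and -1.15 in Con1, Con2 and Con3. All its KO arrays were lower, 1 of them not well above background, and it entered the test only through the Con arrays. The difference was -1.63 (limma, adjusted p = 0.493). Ddb2, which recognises ultraviolet damage in DNA, differed by -0.80 with all KO arrays below the Con arrays (limma, adjusted p = 0.507). Dda1, a small subunit bound to Ddb1, differed by 0.35 with all KO arrays above, and the transcription-coupled repair gene Ercc8 by 0.75 with overlapping groups.

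Among the receptors with an elongin-binding box, used by Cul2 and Cul5, 29 of 35 were measured, 14 higher and 15 lower. Spsb4 differed by -0.92 with all KO arrays below the Con arrays (limma, adjusted p = 0.565), and Klhdc10, a Cul2 receptor, by -0.82 with overlapping groups. Socs4 differed by 0.85 and Fem1a by 0.41, and both overlapped.

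**Figure D4:**
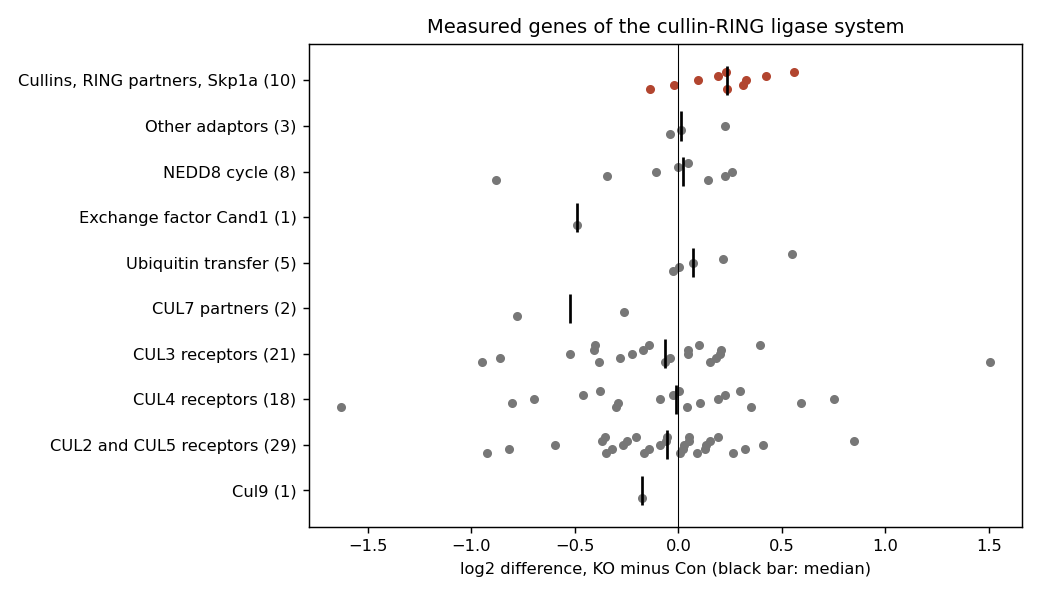
Log2 difference, KO minus Con (x axis), of every measured gene in the set (red, top row) and in each list of other ligase genes (grey), with the number of genes in brackets; the black bar is the median. The members lie between -0.14 and 0.56, while the listed genes run from -1.63 (Dtl) to 1.51 (Kctd13).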

How the data were processed

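Total RNA from sorted cells (5 ng) was amplified with the Ovation system, labelled with Cy3 and hybridised, per the labels' protocols. The scanner's linear intensity values were deposited as Agilent Feature Extraction output, version 10.7.1.1 per the file headers and 9.5.1.1 per the submitters' processing notes. The processed intensity deposited there is background-subtracted by that software. The authors' deposited value table, a normalized signal with equal quantiles in every column (medians 17.7), served only as an alternative.

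Outlier-flagged spots were left out, spots of a probe averaged, and log2 of the processed signal taken minus the array's 75th percentile over non-control spots. A probe was tested where either group had it well above background on each of its 3 arrays, the brightest probe standing for each gene. In all, 2744 unnamed probes were dropped. RefSeq accessions matched for 27235 probes, and 3098 probes were renamed through them. Differences were tested with limma 3.58.1 (R 4.3.3; lmFit and eBayes, two-sided, Benjamini-Hochberg over all 17885 genes). The number of arrays limits the precision: the median standard error was 0.28 (log2). The fit was tested on simulated data. The limma p-values rest on the spread between samples within each group, pooled over both groups and moderated with the spread of all genes.

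Members and lists were chosen with earlier results of these data known. Named were all members with every probe, Psmc4, the 2 genes of each list with the smallest unadjusted p in each direction, and the 3 genes most like the member with the smallest p. A gene this rule names is not reported here. Deviations of same-numbered KO and Con arrays from their group means correlated only weakly (r of 0.07, -0.02 and 0.09). Differently numbered arrays gave r from -0.09 to 0.04, so KO1 with Con1 and KO3 with Con3 were the highest. Numbers were not used as pairs in the main fit. Alternatives covered background correction, scaling, filter, probe choice, variance model, array weights, blocks and arrays left out.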

Additional observations from a re-analysis of the deposited data

How the results depend on the processing

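Under the alternatives run, 20 for each count, the number of members past an adjusted p of 0.05 stayed at 0, the members with a higher mean in KO numbered 6 to 9, and their median difference ran from 0.11 to 0.30. Over the whole array limma called 0 genes; with array weights it called 227, 86 higher and 141 lower, with the intensity trend 8, with median scaling 2, and 1 each with quantile normalization and the deposited table. The adjusted p of Rbx1 ranged from 0.0938 (array weights) to 0.9999, and that of Psmc4 from 0.0659 (array weights) to 0.794, with differences of -1.25 to -0.76. With the replicate block Rbx1 differed by 0.56 (adjusted p = 0.745) and Psmc4 by -0.92 (adjusted p = 0.472), and the block changed no call. An unadjusted limma p below 0.05 was reached by Rbx1 (0.0048) and Skp1a (0.018, difference 0.58) with array weights, and by Rbx1 without KO3 (0.0068). Cul4b reached it as the mean of its probes (0.041, difference 0.57). That mean includes the dimmer probe A_55_P1981780, which entered the test only through the KO arrays, where it is higher. Cul4a differed by 0.79 with the row block, a value that rests on KO3 alone. Some signs turned. As no gene had passed the test in the main fit, these could only be in differences that had not passed. With a block for slide row, and in row 2 on its own, where KO3 alone stands for KO, Cul1 was at -0.058, Cul2 at 0.18, Cul3 at -0.013 and Cul4b at -0.028. With normexp correction Cul4a was at -0.18, because its other probe then stood for the gene, and that probe gave -0.31 on its own. Cul2 was at 0.0096 with median scaling, Rnf7 at 0.027 as the mean of its probes and at 0.23 and 0.13 on single probes, and Rbx1 at -0.15 on its most downstream probe. With 1 array left out, the median difference ran from 0.16 to 0.29 and members higher in KO from 7 to 9; Cul2 ran from -0.12 to 0.060 (0.060 without KO1, 0.042 without Con1), Cul5 from -0.011 (without Con2) to 0.50, Cul7 from -0.029 (without Con1) to 0.20, Rnf7 from -0.36 to 0.042 (0.042 without KO3, 0.0064 without Con3) and Rbx1 from 0.35 to 0.82. Cul4a fell to 0.084 without KO3, where its other probe stood for it; Cul3 was at 0.13 without KO1 and 0.50 without KO3, Cul4b at 0.11 without KO2 and 0.30 without KO3, Skp1a at 0.13 without KO2 and Cul1 at 0.14 without KO1 or Con1 and 0.38 without KO3. For the other turned signs the cause was not tested. The count of 3 arrays per group and 1 slide sets what differences could be seen.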
